A study of Homo sapiens with 12 samples.

Results

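Short listed exonic loops are circular RNAs (circRNAs) that the deposited table classes as exonic, that it takes from circBase or a cited publication, and whose predicted sequence is under 300 nucleotides (nt). With at least 1 back-splice junction read over the 12 libraries, 1087 such loops were found, among 6772 listed exonic loops and 9526 circRNAs of any class. Neither an expression change nor a sample entered that choice, only class, source, length and a read. LN229 and T98G are established cell lines of human glioblastoma, and the libraries fall into 4 groups with 3 libraries each: LN229 in hypoxia, LN229 in normoxia, T98G in hypoxia and T98G in normoxia. Cells in hypoxia were kept at 1% O2 and 5% CO2, and those in normoxia in 95% air and 5% CO2, all in serum-containing DMEM with penicillin and streptomycin. Total RNA was depleted of ribosomal RNA, the protocols mention no enzyme that would remove linear RNA, and they give no time in hypoxia. Nothing in the labels says whether the 3 libraries of a group are separate cultures, so each p-value measures the spread between these libraries, which may be technical.

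A circRNA forms when a splice donor is joined to an acceptor upstream of it, which closes the exons between them into a ring with no free end. The ring is recognised by reads across that back-splice junction, and it usually holds internal exons of a protein-coding gene, since the terminal exons lack one of the splice sites needed. Long introns beside the circularized exons, and inverted repeats within them, are known to favour back-splicing, and a host gene often makes several loops that share an end. CircRNAs have been studied as microRNA and protein ligands and, in a few cases, as templates of translation.

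Of the loops that the results return to, 8 are shown in full, because their length is what defines them and each ring is short enough to print whole. The other 6, listed first, are coding loops among the 10 with most reads. FANCL and HIBADH follow as coding loops named for a small p in a hypoxia comparison. Each is the spliced exon run of a GENCODE 29 transcript with the same host, chromosome, strand, genomic span and length as the loop, written 5′ to 3′ on the strand of the gene. Capitals mark the first 10 and the last 10 nt, which the back-splice joins, the last ones running into the first.
PLOD2: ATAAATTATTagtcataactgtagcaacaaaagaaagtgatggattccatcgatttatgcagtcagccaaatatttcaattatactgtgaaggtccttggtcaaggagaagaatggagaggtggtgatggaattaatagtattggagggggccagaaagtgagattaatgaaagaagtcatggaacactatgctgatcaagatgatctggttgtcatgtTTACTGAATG
ASXL1: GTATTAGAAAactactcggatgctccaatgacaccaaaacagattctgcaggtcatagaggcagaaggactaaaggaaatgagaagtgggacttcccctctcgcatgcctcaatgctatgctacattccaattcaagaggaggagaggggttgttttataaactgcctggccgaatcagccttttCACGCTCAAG
UBXN7: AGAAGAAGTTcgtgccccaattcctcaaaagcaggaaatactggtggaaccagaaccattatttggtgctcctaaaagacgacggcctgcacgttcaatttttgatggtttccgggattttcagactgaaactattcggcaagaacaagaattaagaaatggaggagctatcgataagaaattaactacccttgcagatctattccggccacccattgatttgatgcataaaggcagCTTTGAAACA
XPO1: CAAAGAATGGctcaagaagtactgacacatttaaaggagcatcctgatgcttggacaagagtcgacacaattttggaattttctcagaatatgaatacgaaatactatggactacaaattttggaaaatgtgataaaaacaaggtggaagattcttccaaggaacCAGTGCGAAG
MEMO1: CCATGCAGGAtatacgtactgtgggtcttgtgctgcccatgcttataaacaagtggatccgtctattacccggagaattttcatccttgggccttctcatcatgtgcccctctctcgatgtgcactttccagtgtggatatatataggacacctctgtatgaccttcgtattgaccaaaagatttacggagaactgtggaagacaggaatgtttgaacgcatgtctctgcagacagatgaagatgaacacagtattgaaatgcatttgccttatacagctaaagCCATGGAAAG
TTC13: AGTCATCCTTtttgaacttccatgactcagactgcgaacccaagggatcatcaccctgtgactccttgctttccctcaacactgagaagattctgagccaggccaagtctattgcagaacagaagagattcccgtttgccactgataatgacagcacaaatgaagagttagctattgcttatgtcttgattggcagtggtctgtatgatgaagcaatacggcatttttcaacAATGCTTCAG
FANCL: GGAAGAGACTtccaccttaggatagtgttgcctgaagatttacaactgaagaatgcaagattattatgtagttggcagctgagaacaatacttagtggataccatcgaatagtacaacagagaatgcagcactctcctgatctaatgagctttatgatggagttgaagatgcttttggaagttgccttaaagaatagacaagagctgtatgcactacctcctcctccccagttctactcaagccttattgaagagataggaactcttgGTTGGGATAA
HIBADH: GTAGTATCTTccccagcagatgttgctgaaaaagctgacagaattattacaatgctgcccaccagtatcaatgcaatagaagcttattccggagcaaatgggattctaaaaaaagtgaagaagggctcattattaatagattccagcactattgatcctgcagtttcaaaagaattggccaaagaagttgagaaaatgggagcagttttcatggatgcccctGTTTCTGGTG

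In the GRCh38 build of that annotation, the PLOD2 loop holds exons 2 to 3 at chr3:146121112-146124229 on the minus strand, and the ASXL1 loop exons 2 to 4 at chr20:32366384-32369123 on the plus strand. The UBXN7 loop holds exons 3 to 5 at chr3:196391813-196403019, the XPO1 loop exons 3 to 4 at chr2:61522611-61526521, and the MEMO1 loop exons 3 to 5 at chr2:31917926-31932135, all on the minus strand. The TTC13 loop holds exons 2 to 4 at chr1:230954333-230961303, the FANCL loop exons 2 to 5 at chr2:58221942-58232112, and the HIBADH loop exons 3 to 4 at chr7:27629371-27632445, again on the minus strand. Their lengths are 229, 195, 247, 175, 294, 242, 278 and 232 nt in the order shown. The ASXL1 and MEMO1 loops have a length that is a multiple of 3 and a reading frame with an ATG and no stop codon anywhere round the ring. For ASXL1 a 2nd annotated exon run has the same span and length, and the sequence shown is that of the transcript named in the deposited table, so its open frame holds for that run only. An open frame is a property of the letters, and no measurement of translation was made.

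The 12 libraries held 4298 to 7608 junction reads, 71526 in all, so depth was shallow and 1 read was worth 146 to 203 CPM (counts scaled by TMM to a common library size, relative to all junction reads). LN229 normoxia replicate 3 and T98G normoxia replicate 3 stand apart from the other libraries of their groups. The most abundant circRNA, a 1106-nt loop of CYP24A1 that is no short loop, took 1494, 387 and 1 reads in LN229 hypoxia and 2, 2 and 1870 in LN229 normoxia. In T98G it took 1327, 998 and 1369 reads in hypoxia and 0, 1 and 675 in normoxia. By the reads of this loop LN229 hypoxia replicate 3 also stood apart from its group, with 1 read against 1494 and 387. No listed exonic loop came from a host on the list of neuronal and glial markers, and 1 did from the endothelial and immune list, with none of either among the short loops. Junction reads show which hosts make loops and do not measure the genes themselves, so the identity of the lines was not checked by them.

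The short loops ran from 84 to 299 nt, with a median of 248 nt and quartiles of 217 and 276 nt. Their genomic span, the distance between the joined ends with introns included, had a median of 2875 bp and quartiles of 1022.5 and 7606.5 bp. Span, which the rule does not limit as it does length, ran from 158 to 79499 bp. Of the loops 216 spanned over 10000 bp, and in 68 the span equalled the length, which leaves no intron inside. Listed exonic loops from 300 to under 1000 nt numbered 4334, with a median span of 10146 bp. The 1351 loops of 1000 nt or more had a median span of 22785 bp. At the limit of the rule, 13 loops of 299 nt lay just inside, with a median of 4 reads, and 14 of 300 nt lay just outside, also with a median of 4. Those of ZEB1, an epithelial-mesenchymal transcription factor, with 12 reads, and of PATL1, an mRNA decay factor, with 6 were the largest inside, and ABHD2 with 38 and KDM1A with 29 the largest outside.

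**Figure D1:**
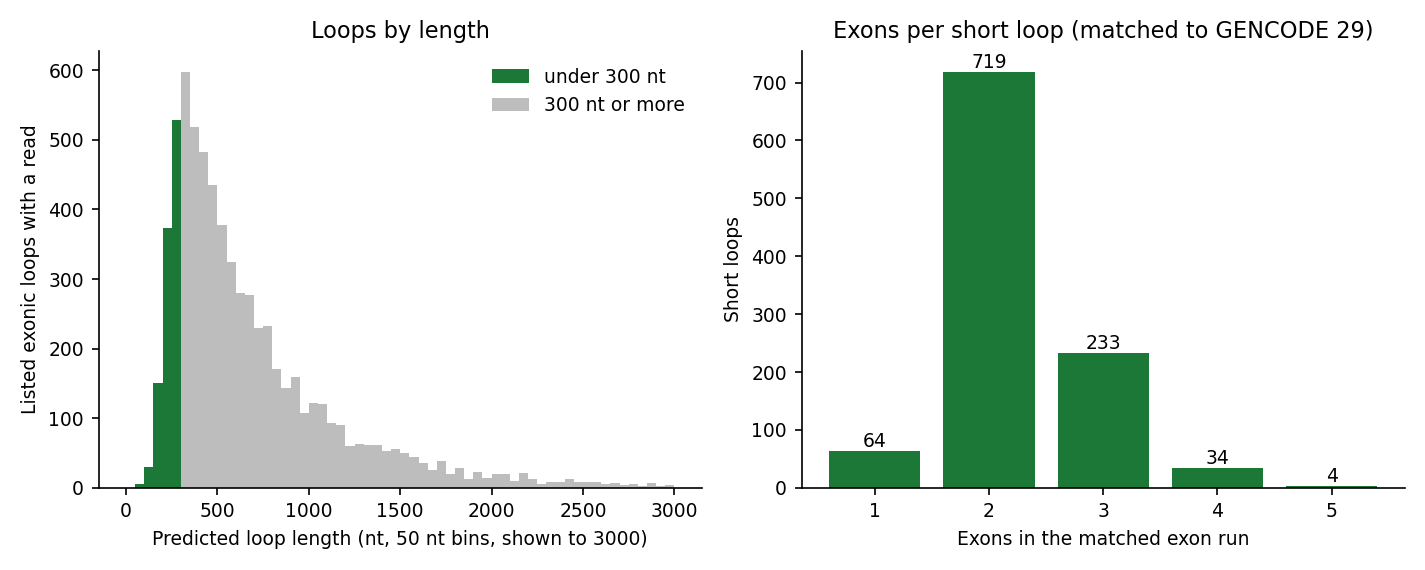
Left, the number of listed exonic loops with a read (vertical axis) by predicted length in nt, in bins of 50 nt with the longest loops left off, with loops under 300 nt in green. Right, the number of short loops (vertical axis) by the number of exons in the matched GENCODE run. The short loops form the rising edge of the distribution on the left, and 719 of the 1054 matched ones hold 2 exons.

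An annotated exon run of the same span and length was found for 1054 of the 1087 short loops (97.0%). It held 2 exons in 719 loops (68.2%), 3 in 233, 1 in 64, 4 in 34 and 5 in 4. The median was 2 exons, beside 4 in loops from 300 to under 1000 nt and 8 in those of 1000 nt or more. The mean exon within a loop was also shorter, with a median over loops of 112 nt in the short class, 131.5 nt in the middle class and 172 nt in the long class. Exon 2 opened 30.7% of the short loops, 31.5% of the middle class and 39.6% of the long class, and exon 1 opened only 4, 7 and 3 loops of these classes. The intron upstream of the loop had a median of 8159 bp in the short class, 8900 bp in the middle class and 9030 bp in the long class. Downstream the medians were 7332, 7624 and 7653 bp in that order. Coding sequence alone made up 880 of the matched short loops (83.5%), with 119 partly coding, 27 untranslated and 28 from transcripts with no coding frame. Loops from 300 to under 1000 nt were coding throughout in 83.3% of cases and those of 1000 nt or more in 72.8%. A length that is a multiple of 3 was found in 368 matched short loops (34.9%), and 268 (25.4%) had a frame with an ATG and no stop codon round the ring. GC content had a median of 43.9% in short loops, 43.6% in the middle class and 42.9% in the long class. Length is the exon number times the mean exon, so class differences in these follow at least in part from the length limits. All of these values are descriptions of the annotated runs, and no test was made of them, since loops of a host share exons. A junction read does not show which inner exons a ring keeps, so lengths and exon numbers are predictions.

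The shortest loop was of GTF2I, a general transcription factor, at 84 nt with 2 reads. Next came UBE2F at 96 nt with 1 read, ATXN2 and MRPS6 at 97 nt and TPST1 at 98 nt. Among these the ATXN2 loop stood out in abundance, with 27 reads over 9 of the 12 libraries. Loops under 150 nt numbered 35 and averaged 3.91 reads over the 12 libraries. The 150 loops of 150 to 199 nt averaged 6.98 reads, the 373 of 200 to 249 nt 7.19 and the 529 of 250 to 299 nt 6.17. Over the 1087 loops Spearman's rho with reads was 0.05 for length and 0.03 for span, both descriptions across loops of the same 12 libraries.

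Together the short loops took 7130 junction reads, 9.97% of all reads, while making up 16.1% of the listed exonic loops. They averaged 6.56 reads over the 12 libraries, against 9.31 in the other listed exonic loops, and the medians were 3 and 4 reads. Within each library the mean was lower in short loops than in the others, in 12 of 12 libraries, with differences, short minus other, of -0.459 to -0.0353 reads per loop. The mean difference was -0.229 reads per loop and library (two-sided exact sign-flip permutation test over 12 libraries, p = 0.000488, the smallest this test can give). All 12 libraries count the same loops, so this test measures the spread between libraries and not that between loops. It cannot tell whether another set of short loops would also be lower. A single loop weighed on the size of the mean difference. Without the CYP24A1 loop the others averaged 7.88 reads and the difference was -0.110, with the same p in the exact test and 12 of 12 libraries lower. Among loops with at least 10 reads, the CYP24A1 loop still included, the means were 26.1 reads in short loops and 35.2 in the others. Short loops were lower in 11 of 12 libraries, with a mean difference of -0.761 (exact p = 0.00293). That comparison was not repeated without the CYP24A1 loop, so how far it rests on that loop was not tested.

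Reads were spread thinly over the short loops. A single read was all that 139 had, 315 were seen in only 1 library, 146 had at least 10 reads and 16 at least 50. In all 12 libraries 23 were seen. The 10 most abundant held 15.5% of the reads of short loops, the top 50 held 35.04% and the top 100 held 46.3%. Those 10 came from genes with very different roles: collagen cross-linking (PLOD2), chromatin (ASXL1), nuclear receptor signalling (NRIP1), ubiquitin and protein turnover (UBXN7, UBE3A), the cytoskeleton and motility (ASAP1, MEMO1, CORO1C) and nuclear export (XPO1), besides the tetratricopeptide repeat protein TTC13.

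The 229-nt loop of PLOD2, a lysyl hydroxylase of collagen and a known target of hypoxia-inducible factor, was the most abundant with 228 reads, 9th among all circRNAs. It had 33, 32 and 15 reads in LN229 hypoxia and 10, 17 and 23 in LN229 normoxia. T98G hypoxia held 14, 12 and 23 reads of it and T98G normoxia 19, 11 and 19. The groups overlapped in both lines, and the log2 fold change of hypoxia over normoxia was 0.62 (SE 0.43, edgeR adjusted p = 0.708) in LN229 and 0.05 (SE 0.44, edgeR adjusted p = 0.964) in T98G. The short loop took 77.3% of the reads of the 2 listed exonic loops of PLOD2.

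The 195-nt loop of ASXL1, a Polycomb-group protein that works with the deubiquitinase BAP1 on histone H2A, had 175 reads. A 289-nt short loop of ASXL1 begins at the same hg19 position (chromosome 20, 30954187) and ends further along, at 30959677 in place of 30956926. It had 56 reads, so the pair took 75.8% and 24.2% of the reads of the listed exonic loops of the gene. The 203-nt loop of NRIP1, a corepressor of nuclear receptors, had 106 reads and was the only listed exonic loop of its gene. It spans 29231 bp, lies in untranslated exons and had 4 to 15 reads in every library. UBXN7, a cofactor of the ATPase VCP, gave 100 reads of a 247-nt loop, 89.3% of the reads of its 4 listed exonic loops. UBE3A, the ubiquitin ligase of Angelman syndrome, gave 97 reads of a 291-nt loop, with 0 to 19 per library. XPO1, the main nuclear export receptor, differed from the rest in that its 175-nt loop, with 92 reads, was the 2nd of 17 loops and held 20.1% of the reads of the gene. It also had the narrowest range of the 10, with 5 to 10 reads in every library. The loops of MEMO1, a cell motility protein, of TTC13 and of CORO1C, an actin-binding coronin, took 79.4%, 83.3% and 95.2% of the listed exonic reads of their genes, and that of ASAP1, a GTPase-activating protein of Arf, 48.5%. CORO1C, MEMO1 and UBE3A have 1, 6 and 2 pseudogenes by name in the gene table used. Whether junction reads are shared with these was not tested, so the counts of these hosts are uncertain. The same holds for RNF138 and IPO7, with 2 pseudogenes each.

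In the hg19 coordinates of the deposited table, the NRIP1 loop lies on chromosome 21 from 16386665 to 16415895, the UBE3A loop on chromosome 15 from 25650608 to 25657118 and the CORO1C loop on chromosome 12 from 109046048 to 109048186, all on the minus strand. Of loops named further on, that of MATR3 lies on chromosome 5 from 138614016 to 138614818 on the plus strand, in untranslated exons, and that of LPAR1 on chromosome 9 from 113734353 to 113735838 on the minus strand, partly in coding sequence. The ASAP1 and NCOA2 loops, each of exons 3 to 4 and partly coding, lie on chromosome 8 from 131370263 to 131374017 and from 71126138 to 71128999, both on the minus strand.

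**Figure D2:**
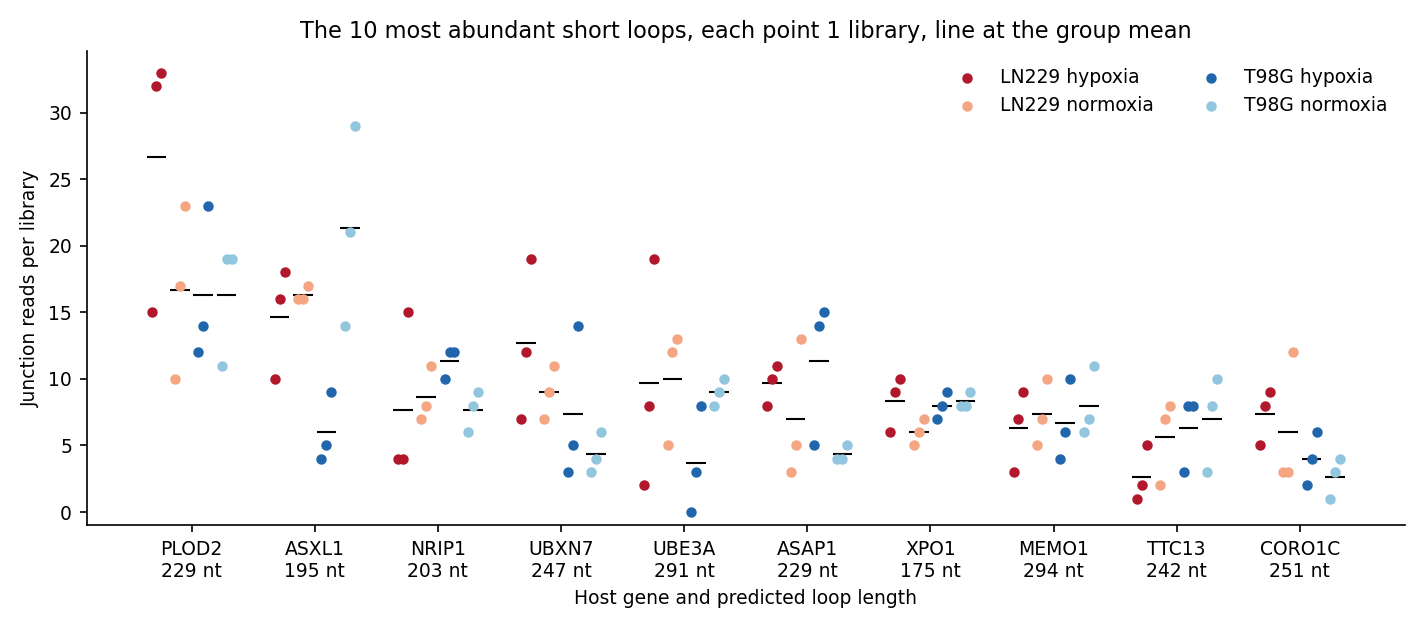
Junction reads per library (vertical axis) of the 10 short loops with most reads, named by host gene and length on the horizontal axis. Each point is 1 library, coloured by group, and the line is the mean of 3 libraries. PLOD2 reaches 33 reads in LN229 hypoxia, ASXL1 lies at 4 to 9 in T98G hypoxia and at 14 to 29 in T98G normoxia, and XPO1 stays between 5 and 10 throughout.

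Short loops came from 932 host genes, besides 3 with a placeholder in place of a host. Of the hosts 806 had 1 short loop and 126 had more, and 5 had 4: GRB10, PICALM, PTPN12, RFWD2 and UBAP2. The 4 loops of GRB10, an adaptor of the insulin receptor, share 1 end and span 1503 to 52236 bp, with 1 to 7 reads. At least 1 longer listed exonic loop was found for 545 hosts, and in these the short loops held a median of 33.3% of the reads of the host. In 387 hosts all listed exonic loops were short. An end was shared with another listed exonic loop by 469 short loops (43.1%).

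By the role of the host, adhesion, matrix and cytoskeleton genes gave 37 short loops with 450 reads, of which PLOD2 made up 228, and chromatin regulators gave 30 loops with 449 reads. Ubiquitin ligases and deubiquitinases gave 30 loops with 315 reads, led after UBE3A by RNF138, a ligase of DNA repair, with 54. Hypoxia response genes gave 12 loops with 294 reads, PLOD2 again foremost, followed by the histone demethylase KDM4C with 23. Kinases and phosphatases gave 34 loops with 169 reads, with DYRK1A at 33 and the phosphatase PTPN12 at 14. Nuclear transport genes gave 15 loops with 154 reads, where IPO7, an importin, had 13 after XPO1. Cell cycle and repair genes gave 18 loops with 138 reads, led by FANCL with 60 and CDC73, a subunit of the Paf complex, with 17. Splicing and RNA-binding genes gave 15 loops with 109 reads, with the splicing factor SRSF4 at 19 and the deadenylase CNOT6 at 18. Genes of the zinc finger family named ZNF gave 16 loops with 94 reads. Translation genes gave 9 loops with 36 reads, with EIF3B at 9 and EIF4G3 at 5. Short loops made up 9.57% of the listed exonic loops of the cell cycle list and 20.5% of those of the translation list, around the 16.1% of all listed exonic loops.

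Summed over the short loops of a list, raw reads of hypoxia and normoxia libraries did not overlap in 1 line for 3 of the lists. These were picked here after their values were seen and were not tested. The sums are not scaled for depth, which ran from 4298 to 7608 reads per library. Within each group they are given from lowest to highest and not in replicate order. Of the single circRNAs tested, in CPM, 36.9% did not overlap in T98G and 9.84% in LN229. Over the 9 translation loops, the libraries of T98G hypoxia held 0, 0 and 0 reads, against 3, 7 and 7 in T98G normoxia. LN229 hypoxia held 1, 2 and 6 and LN229 normoxia 3, 3 and 4. Each count of 0 allows up to 3 reads, and the T98G groups lie close to that floor. Over the 15 splicing and RNA-binding loops the order in T98G was the other way, with 9, 10 and 15 reads in T98G hypoxia, against 2, 7 and 8 in T98G normoxia, while LN229 hypoxia held 8, 9 and 16 and LN229 normoxia 7, 8 and 10. Over the 18 cell cycle and repair loops LN229 hypoxia held 14, 15 and 18 reads, against 9, 10 and 11 in LN229 normoxia, while T98G hypoxia held 3, 8 and 16 and T98G normoxia 9, 12 and 13. For the hypoxia response list, T98G hypoxia held 19, 19 and 29 reads and T98G normoxia 18, 23 and 27, while LN229 hypoxia held 20, 36 and 38 and LN229 normoxia 16, 24 and 25. These sums overlapped in both lines, as did those of the other lists with a short loop.

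Of circRNAs known by name, the loop of SMARCA5, a chromatin remodeller, called circSMARCA5 in glioma work, was a short loop of 269 nt with 13 reads. LN229 hypoxia held 3, 0 and 2 reads of it, LN229 normoxia 1, 1 and 0, T98G hypoxia 2, 1 and 0, and T98G normoxia 1, 1 and 1, too few for a comparison. The 254-nt loop of CNIH4 had 2 reads, both in LN229 normoxia replicate 3. The named loops of FNDC3B and SHPRH were present at 526 and 440 nt, above the limit.

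The share of junction reads that fell on short loops asks whether short rings gain or lose ground as a class in hypoxia. It was 8.98%, 11.2% and 11.05% in LN229 hypoxia, a mean of 10.4% ± 1.23 (SD, n = 3), against 12.7%, 11.2% and 8.23% in LN229 normoxia, a mean of 10.7% ± 2.27. In T98G it was 8.42%, 8.13% and 9.48% in hypoxia, a mean of 8.68% ± 0.713, against 11.2%, 10.7% and 9.67% in normoxia, a mean of 10.5% ± 0.801. The groups overlapped in LN229 and did not in T98G, where all 3 hypoxia libraries lay below all 3 normoxia libraries. The 95% Wilson interval, which covers counting error only, was 7.44 to 8.87% for the lowest library and 11.8 to 13.6% for the highest. The difference, hypoxia minus normoxia, was -0.31 percentage points in LN229 (two-sided exact permutation test, p = 0.8) and -1.87 in T98G (exact p = 0.1, the smallest that 3 against 3 can give). Averaged over the lines it was -1.09 (exact p = 0.21, labels permuted within line). T98G minus LN229, averaged over the conditions, was -0.94 (exact p = 0.275).

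Single libraries moved these values. The difference in LN229 was 0.40 without LN229 hypoxia replicate 1 and 0.68 without LN229 normoxia replicate 1. Without LN229 normoxia replicate 3 the average over the lines was -1.71 (exact p = 0.02) and the difference of the lines -1.56 (exact p = 0.04). Shares were low where the CYP24A1 loop was high. With that loop left out of the denominator the means were 11.5% ± 0.402 in LN229 hypoxia, 11.6% ± 0.950 in LN229 normoxia, 10.8% ± 1.12 in T98G hypoxia and 10.96% ± 0.246 in T98G normoxia. The differences were then -0.11 in LN229 (exact p = 0.9), -0.15 in T98G (exact p = 0.8), -0.13 on average (exact p = 0.755) and -0.67 between lines (exact p = 0.15). The 12 libraries then lay between 9.91% and 12.7%. Loops from 300 to under 1000 nt held 46.3% of all reads and those of 1000 nt or more, the CYP24A1 loop included, 27.6%.

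**Figure D3:**
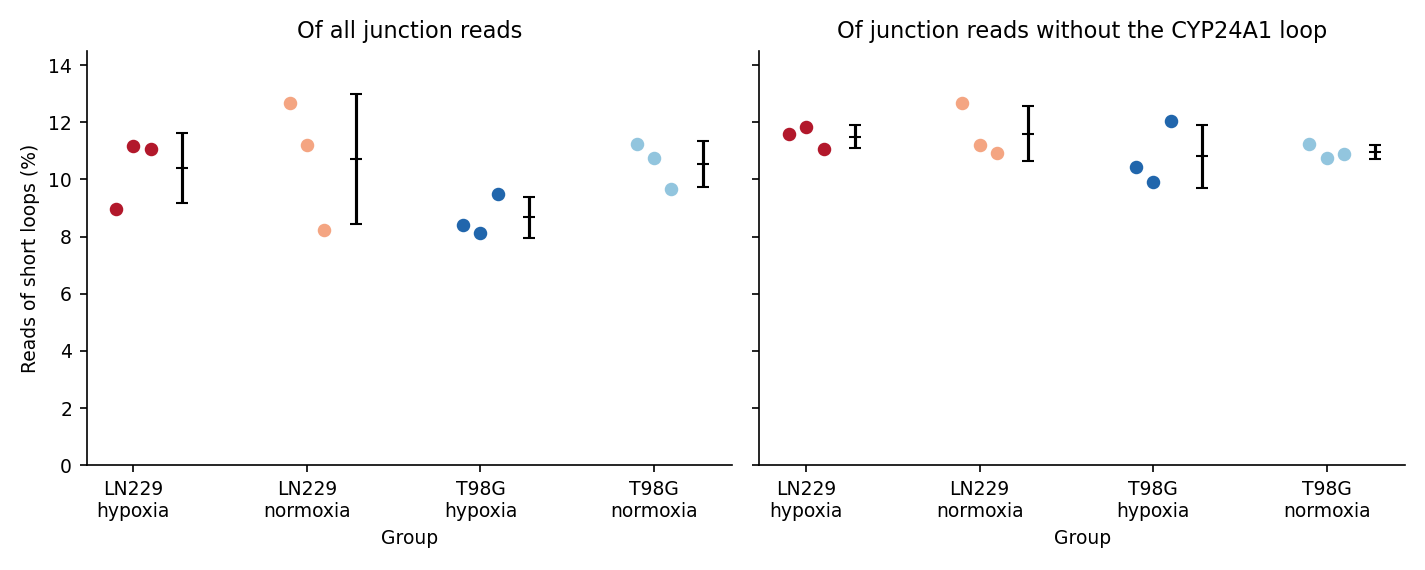
Percentage of junction reads on short loops (vertical axis, starting at 0) in each library of the 4 groups (horizontal axis), of all junction reads on the left and without the CYP24A1 loop on the right. Points are libraries, and the bar is the mean with its SD. T98G hypoxia lies at 8.13 to 9.48% and T98G normoxia at 9.67 to 11.2% on the left, and the groups overlap on the right.

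Which single short loops differ between hypoxia and normoxia was asked of 24 of the 1087, those with at least 5 reads in at least 3 libraries. They are 2.21% of the short loops, while 3.23% of the loops from 300 to under 1000 nt and 3.78% of the longer ones passed that filter. In edgeR's quasi-likelihood test with Benjamini-Hochberg adjustment over the 244 circRNAs tested, none of the 24 passed 0.05 in LN229 (0% of all tested passed), none in T98G (0.41% of all), and none for the average over the lines (4.1% of all). None passed when the response of LN229 was subtracted from that of T98G (0% of all), or for T98G against LN229 (0% of all). At an unadjusted p under 0.05 there were 2 in LN229 (8.2% of all tested), 3 in T98G (20.9%), 4 on average (19.3%), 3 for the difference (7.79%) and 0 between lines (2.87%). DESeq2 called none of the 24 in any of these 5 comparisons. The median log2 fold change of the 24 was 0.13 in LN229, 0.27 in T98G and 0.27 on average, beside -0.04, -0.02 and 0.04 over all 244. Hypoxia and normoxia libraries did not overlap for 4 of the 24 in LN229 (9.84% of all tested), for 5 in T98G (36.9%) and for 1 in both lines in the same direction (2.87%). In LN229 these were FANCL, AFAP1 and MATR3, higher in hypoxia, and NCOA2, lower. In T98G they were NRIP1, MATR3 and ASAP1, higher in hypoxia, and ASXL1 and HIBADH, lower. MATR3 was the 1 in both.

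**Figure D4:**
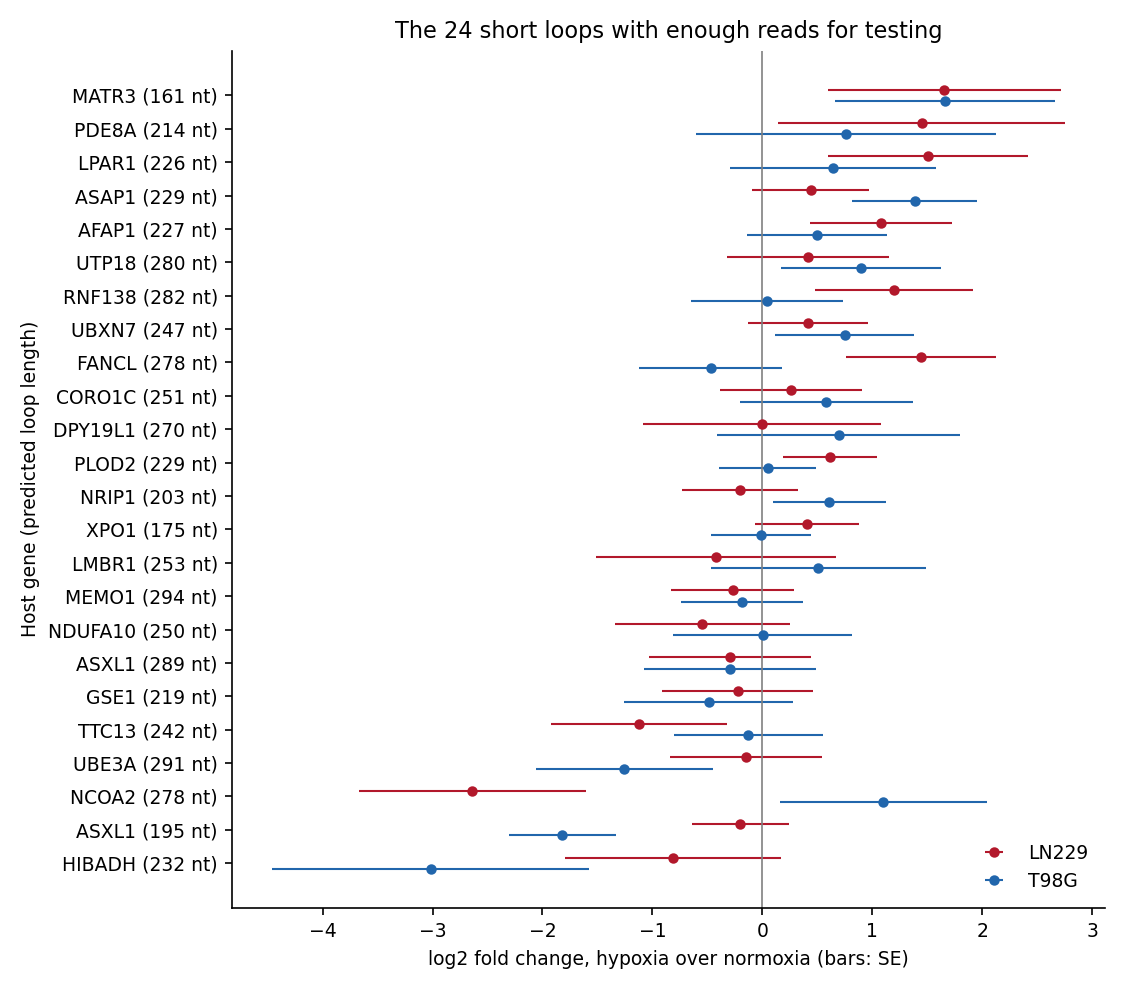
Log2 fold change of hypoxia over normoxia (horizontal axis) with its SE, in LN229 (red) and in T98G (blue), for the 24 short loops tested, named by host and length and sorted by the average over the lines. MATR3 stands at the top with 1.66 in both lines, and HIBADH at the bottom with -0.81 in LN229 and -3.02 in T98G. Values above 0 number 12 of 24 in LN229 and 15 of 24 in T98G.

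In LN229 the smallest p belonged to the 278-nt loop of NCOA2, a nuclear receptor coactivator. It had 2, 1 and 0 reads in LN229 hypoxia, against 7, 6 and 7 in LN229 normoxia. In T98G it had 4, 1 and 6 reads in hypoxia and 1, 2 and 2 in normoxia. The groups did not overlap in LN229 and did in T98G. The log2 fold change was -2.64 in LN229 (SE 1.03, edgeR adjusted p = 0.204) and 1.10 in T98G, and the difference of the responses was 3.74 (SE 1.40, edgeR adjusted p = 0.401). With 3 reads against 20, the ratio of the LN229 shares was 0.141 (95% counting interval 0.0269 to 0.476). The 278-nt loop of FANCL, the ubiquitin ligase of the Fanconi anaemia complex, had 9, 4 and 10 reads in LN229 hypoxia and 3, 3 and 2 in LN229 normoxia. T98G hypoxia held 3, 2 and 7 reads of it, and T98G normoxia 4, 7 and 6. Here LN229 hypoxia lay above LN229 normoxia without overlap, while the T98G groups overlapped (log2 fold change 1.45 in LN229, SE 0.68, edgeR adjusted p = 0.521, and -0.47 in T98G, difference -1.92). LPAR1, a receptor of lysophosphatidic acid, had 3, 10 and 8 reads of its 226-nt loop in LN229 hypoxia and 3, 0 and 4 in LN229 normoxia, and these overlapped (log2 fold change 1.51, SE 0.91, edgeR adjusted p = 0.696). The TTC13 loop had 5, 2 and 1 reads in LN229 hypoxia and 8, 7 and 2 in LN229 normoxia (log2 fold change -1.12, edgeR adjusted p = 0.708).

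In T98G the smallest p was that of the 195-nt ASXL1 loop. It had 5, 4 and 9 reads in T98G hypoxia, against 21, 29 and 14 in T98G normoxia. In LN229 it had 10, 16 and 18 reads in hypoxia and 16, 16 and 17 in normoxia. The T98G groups lay apart and the LN229 groups overlapped. The log2 fold change was -1.82 in T98G (SE 0.49, edgeR adjusted p = 0.066), -0.20 in LN229 and -1.01 on average (SE 0.33, edgeR adjusted p = 0.0946), and the difference of the responses was -1.62 (SE 0.66, edgeR adjusted p = 0.568). In CPM it averaged 1069 ± 445 in T98G hypoxia and 3890 ± 1895 in T98G normoxia (SD, n = 3 each). The T98G value passed the threshold without LN229 normoxia replicate 3 (edgeR adjusted p = 0.0074), with T98G normoxia replicate 3 left out (0.0155) and with LN229 hypoxia replicate 1 left out (0.0457), and over all 21 alternatives the adjusted p ran from 0.000193 to 0.43. The 289-nt ASXL1 loop, with the same start, overlapped between the T98G groups: it had 1, 4 and 6 reads in T98G hypoxia and 8, 3 and 3 in T98G normoxia (log2 fold change -0.29, edgeR adjusted p = 0.837). The difference between the 2 loops was not tested.

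HIBADH, a mitochondrial dehydrogenase of valine breakdown, had 1, 1 and 0 reads of its 232-nt loop in T98G hypoxia, against 7, 7 and 5 in T98G normoxia. In LN229 it had 0, 5 and 4 reads in hypoxia and 7, 8 and 0 in normoxia. The T98G groups did not overlap, and the LN229 groups did. The log2 fold change was -3.02 in T98G (SE 1.44, edgeR adjusted p = 0.145) and -1.91 on average (SE 0.87, edgeR adjusted p = 0.182). The 2 reads against 19 in T98G give a ratio of shares of 0.0868 (95% counting interval 0.00981 to 0.36). Without LN229 normoxia replicate 3, which had 0 reads of this loop, the edgeR adjusted p was 0.0225 in T98G and 0.0065 on average. Over 20 and 19 alternatives it ran from 0.0156 to 0.432 and from 0.00374 to 0.461.

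The 229-nt ASAP1 loop had 14, 5 and 15 reads in T98G hypoxia, against 4, 4 and 5 in T98G normoxia, and 8, 11 and 10 in LN229 hypoxia, against 5, 3 and 13 in LN229 normoxia. In CPM the T98G groups did not overlap, and in LN229 normoxia replicate 3 lay above the hypoxia libraries. The log2 fold change was 1.39 in T98G (SE 0.57, edgeR adjusted p = 0.145) and 0.91 on average (SE 0.39, edgeR adjusted p = 0.213). Without LN229 normoxia replicate 3 the average was 1.26 (edgeR adjusted p = 0.0254, with a range of 0.0238 to 1.0 over 20 alternatives). The 161-nt loop of MATR3, an RNA-binding protein of the nuclear matrix, was the only loop of the 24 whose hypoxia libraries lay above the normoxia libraries in both lines. It had 8, 3 and 3 reads in LN229 hypoxia, against 2, 2 and 0 in LN229 normoxia, and 6, 6 and 4 in T98G hypoxia, against 0, 2 and 3 in T98G normoxia. The log2 fold change was 1.66 in each line and 1.66 on average (SE 0.73, edgeR adjusted p = 0.2). MATR3 has 2 pseudogenes by name, and whether reads are shared with them was not tested, so its reads are uncertain.

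**Figure D5:**
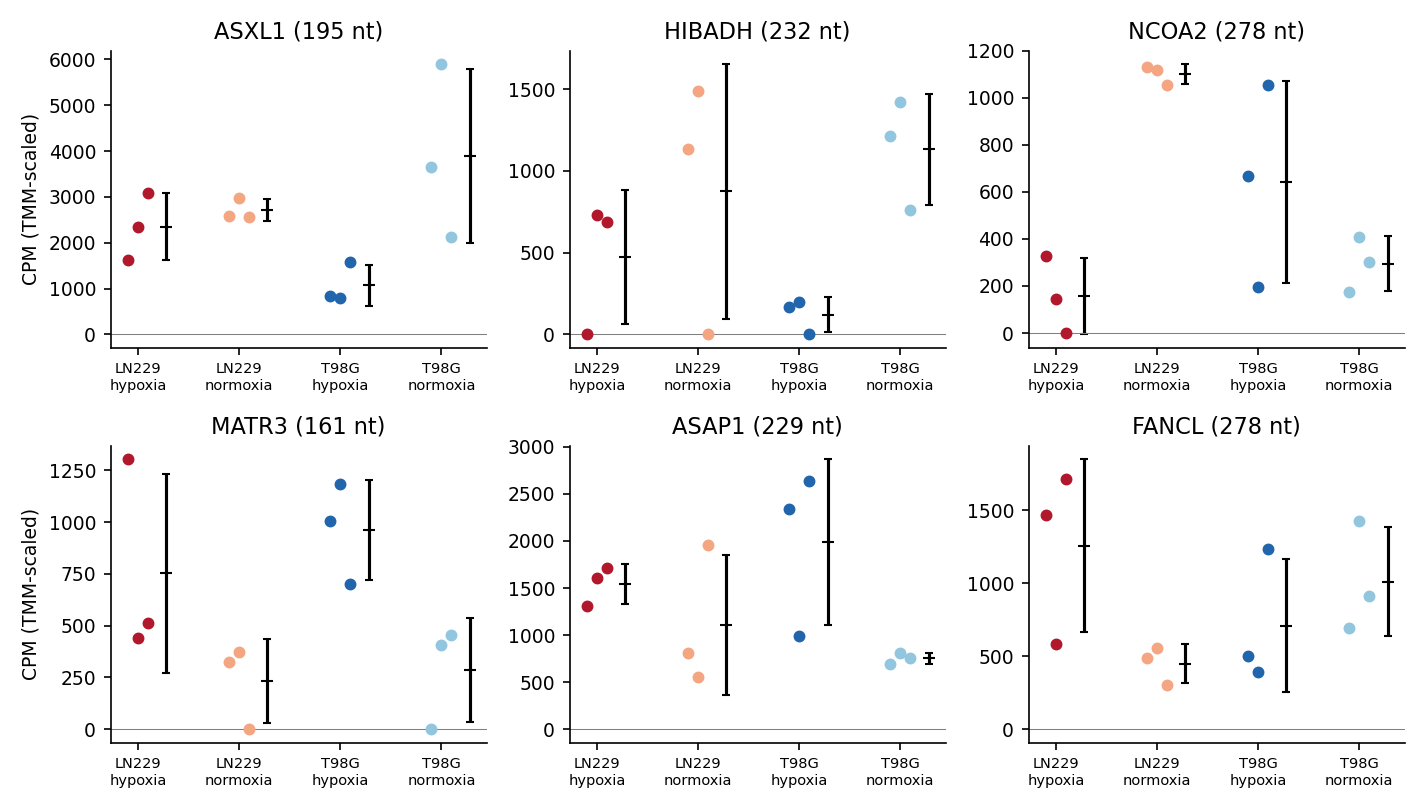
CPM (vertical axes, TMM-scaled, relative to all junction reads) of 6 short loops in each library of the 4 groups (horizontal axes), with the mean and SD beside the points. The loops are those of ASXL1, HIBADH, NCOA2, MATR3, ASAP1 and FANCL. T98G hypoxia lies below T98G normoxia for ASXL1 and HIBADH and above it for MATR3 and ASAP1, and LN229 hypoxia lies below LN229 normoxia for NCOA2 and above it for FANCL.

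Leaving out the normoxia replicate 3 of both lines, which were picked for lying apart, gave 2 called short loops in T98G (ASXL1 and HIBADH, both lower in hypoxia) and 4 on average (these, with ASAP1 and LPAR1 higher). The same setting called 19.7% of all 244 circRNAs in T98G and 23% on average. With LN229 hypoxia replicate 3 left out instead, which also lay apart by its CYP24A1 reads, no short loop was called. Without LN229 normoxia replicate 3 alone, 4 of the 24 were called on average, ASXL1, HIBADH, ASAP1 and PDE8A (19.3% of all tested), and 2 in T98G, ASXL1 and HIBADH (11.9%). Without T98G normoxia replicate 3 alone, ASXL1 was called in T98G (6.56% of all tested) and on average (6.97%). With only 1 to 4 short loops called, their share lay below that of all circRNAs tested under these settings. It lay above under some of those named next, and the shares were not compared by a test. In T98G alone ASXL1 was also called without LN229 hypoxia replicate 1 (1.64% of all tested) and as 1 of 7 short loops with at least 10 reads in 3 libraries (5.88%), and with HIBADH from the T98G libraries only (14.8%). Between the lines none of the 24 short loops tested lay apart in every library (0% of all tested). The smallest p belonged to UBXN7, with 5, 3 and 14 reads in T98G hypoxia and 4, 6 and 3 in T98G normoxia, against 7, 19 and 12 in LN229 hypoxia and 11, 9 and 7 in LN229 normoxia (log2 fold change -0.78, SE 0.42, edgeR adjusted p = 0.97). CORO1C had -0.84, TTC13 0.88 and XPO1 0.33 in the same comparison (edgeR adjusted p = 0.97 for each).

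Many short loops were seen in 1 condition only, nearly all with few reads. In hypoxia libraries and no normoxia library there were 240 loops with 554 reads, of at most 8 reads each, and in normoxia libraries alone 237 loops with 512 reads, of at most 12. Hypoxia libraries held 37973 junction reads of all circRNAs, and normoxia libraries 33553. The 610 loops seen in both conditions held 6064 reads. In T98G and not LN229 there were 205 loops with 412 reads, and in LN229 and not T98G 266 with 609, from 34314 reads in T98G and 37212 in LN229. Whether such counts differ from those of all circRNAs was not tested, so they mark no trait of short loops. Up to 2 of the loops with most reads in each of these 4 sets, chosen after their values were seen, are given next. In hypoxia alone, the loop of CDC42BPB, a kinase of the actin cytoskeleton, had 0, 0 and 1 reads in LN229 hypoxia and 4, 3 and 0 in T98G hypoxia. That of NPAS3, a neuronal transcription factor, had 0, 1 and 7 reads in LN229 hypoxia and 0 in T98G hypoxia. In normoxia alone, the loop of GAS7, a growth arrest gene, had 8, 2 and 0 reads with LN229 and 0, 2 and 0 with T98G, and that of LMO7, a LIM domain protein, 2, 1 and 1 with LN229 and 2, 2 and 0 with T98G. In T98G alone, the loop of RAB2A, a small GTPase of vesicle traffic, had 0, 1 and 0 reads in hypoxia and 1, 0 and 5 in normoxia. In LN229 alone, the loop of YAF2, a Polycomb-associated protein, had 2, 3 and 1 reads in hypoxia and 2, 1 and 2 in normoxia, and that of GNB1, a G protein subunit, 1, 1 and 1 in hypoxia and 4, 1 and 1 in normoxia. The YAF2 and GNB1 loops were seen in all 6 LN229 libraries, and the others were missing from at least 1 library of their set. A count of 0 allows up to 3 reads, so none of these shows a loop to be absent from a condition.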

How the data were processed

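RNA sequencing of 12 libraries of LN229 and T98G gave back-splice junction reads. The authors deposited 1 table with counts of junction reads as whole numbers and log2 values, 1 of each per library, beside position, class, source, host and a predicted sequence length in nt (a number with no further unit, given by the authors). The deposited counts are not normalized. How the deposited log2 values were scaled is not stated by any source used here, so they served only as an alternative. Per the submitters' processing notes, CASAVA 1.8, BWA and the hg19 build were used. No source used here names the circRNA caller or its filters, and the smallest loop or read overhang it could find was not tested. A line with no circRNA was not used. Each count column was matched to its library through the title.

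The deposited counts were tested in edgeR 4.0.16 (R 4.3.3, limma 3.58.1), with TMM scaling of the total junction reads, a minimum of 5 reads in 3 libraries and 1 quasi-likelihood fit over all 12 libraries with a mean per group. Tests were two-sided, with Benjamini-Hochberg adjustment over 244 circRNAs at 0.05. Counts of a group varied with a common dispersion of 0.261 (coefficient of variation 0.511). The SE of a log2 fold change is a Wald SE of the fitted model. Shares and reads per loop were tested by exact permutation over libraries, and Wilson intervals came from scipy 1.17.1. A self-test on simulated data was run first. Its simulated counts spread less than the real ones, so it does not show which changes could be found here. Loops were matched to exon runs of GENCODE 29 (GRCh38) by host, chromosome, strand, span and length, with no conversion of coordinates, and where several runs matched, by the transcript the table names.

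The loops named are the 10 with most reads, those with the smallest p in each direction of each comparison, those known by name, the 2 with most reads per host list, the hosts with most short loops, and those at the length limits. The members and the host lists were chosen with earlier results of these data known. Alternatives were RLE size factors, DESeq2 1.42.0, other read minimums, limma on the deposited log2 values, the CYP24A1 loop left out, 1 line at a time, a replicate block, other length limits and denominators, and libraries left out. A loop seen in 1 line only is not reported here.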

Additional observations from a re-analysis of the deposited data

How the results depend on the processing

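No short loop was called in LN229, for the difference of the responses or between the lines under any alternative. In T98G 1 of 7 was called with at least 10 reads in 3 libraries (5.88% of all circRNAs tested), 2 of 24 with only the libraries of that line (14.8%), 2 without normoxia replicate 3 of both lines (19.7%), and 0 to 2 with each library left out (1.64% without LN229 hypoxia replicate 1, with 1 short loop). On average over the lines, 4 were called without normoxia replicate 3 of both lines (23%) and 0 to 4 with each library left out. All other alternatives gave 0, RLE factors, DESeq2, no minimum of reads, limma on the deposited log2 values and the table without the CYP24A1 loop among them. The cause was not tested. For the short-loop share, leaving out each library gave -1.55 to 0.68 percentage points in LN229, with LN229 hypoxia replicate 1 out giving 0.40 and LN229 normoxia replicate 1 out 0.68. It gave -2.31 to -1.53 in T98G, -1.71 to -0.60 on average and -1.56 to -0.45 between lines. Without normoxia replicate 3 of both lines the average was -1.93 (exact permutation p = 0.02). The reads per loop kept their direction under every alternative, from -0.246 to -0.208 with each library left out. Same-numbered libraries of a line did not deviate together from their group means. Their deviations correlated at -0.459, 0.0607 and -0.545 in LN229 and at -0.0144, -0.0592 and -0.0594 in T98G. Among unlike numbers, LN229 hypoxia replicate 1 correlated at -0.43 with LN229 normoxia replicate 2 and at 0.55 with replicate 3. LN229 hypoxia replicate 2 gave 0.08 and -0.09 with LN229 normoxia replicates 1 and 3. For LN229 hypoxia replicate 3 the values were 0.44 and 0.43 with LN229 normoxia replicates 1 and 2. Unlike numbers in T98G ran from -0.02 to 0.06. The labels do not say whether replicate numbers pair the samples, and these correlations cannot settle it. With the replicate block 0 short loops were called in 4 comparisons, and the share differences kept their values, with exact p = 0.75 in LN229, 0.25 in T98G and 0.281 on average. Depth limits single loops: 24 of 1087 had 5 reads in 3 libraries, and with no minimum all 1087 were tested with 0 called.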
